A study of Mus musculus with 6 samples.

Results

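Neat1 and Malat1 are neighbouring genes for long noncoding RNAs that stay in the nucleus, and their levels are described here in the livers of C57BL/6J mice, an inbred strain, fed a high-fat or a control diet. They are 2 of the 18193 genes that have a probe set of their own on the larger array design. Members were all probe sets (groups of short oligonucleotides on an Affymetrix array that read 1 transcript) that the platform annotation assigns to 1 of these genes and to no other. There were 9 among the 45037 probe sets of the larger array design, 2 for Neat1 and 7 for Malat1. Of these, 6 were among the 22626 probe sets on both designs, 1 for Neat1 and 5 for Malat1, and 3 were on the larger design alone. A filter on low signal, described with the values, left 5 of these 6. The genes were chosen on the diet differences of their brightest probe sets in these same arrays, so those differences are given as a description, with no test.

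The samples were liver after 2, 4 and 10 weeks on the high-fat diet and after 2, 4 and 10 weeks on the control diet, with 1 array for each diet and week and 6 arrays in all. The larger design was used at week 4 and the smaller one at weeks 2 and 10. All mice were C57BL/6J, and the labels give no sex, no age and no hour of collection, and do not say whether an array holds RNA of 1 mouse or a pool. With 1 array in each cell of this design, a difference at a single week has no replicate check.

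Neat1 RNA is the scaffold of paraspeckles, nuclear bodies that hold RNA-binding proteins and that form around the site where the gene is transcribed. The gene gives a short isoform with a poly(A) tail and a long isoform that the bodies need. Malat1 RNA is one of the most abundant nuclear RNAs in many tissues and collects in nuclear speckles, which store splicing factors. Malat1 and the long Neat1 isoform end without a usual poly(A) tail, after cleavage by RNase P that frees a small tRNA-like RNA. In mice, loss of Malat1 is tolerated with few visible defects.

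Both genes lie on mouse chromosome 19 in the annotation of GRCm38.p6, and Malat1 lies next to Neat1, with Frmd8 on the far side of Neat1. The Malat1 promoter from RefSeq, on the minus strand at chr19:5802623-5802922, is shown to place the annotated start of Malat1. It covers 250 bases before the start and 50 after it. Capitals mark the letters TGACG on either strand, the core of the cAMP response element.

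Malat1 promoter: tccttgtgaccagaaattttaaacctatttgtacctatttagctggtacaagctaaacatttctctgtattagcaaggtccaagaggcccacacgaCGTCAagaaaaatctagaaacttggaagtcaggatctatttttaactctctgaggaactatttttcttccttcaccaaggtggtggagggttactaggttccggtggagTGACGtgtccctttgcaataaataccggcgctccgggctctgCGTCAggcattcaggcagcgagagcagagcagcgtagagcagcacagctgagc

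The core occurred 3 times, beginning 154, 45 and 3 bases before the start, and 20.8% of the 32851 promoters in the RefSeq table held it at least once on either strand. The full element TGACGTCA, held by 1.79% of promoters, was not in this window. Neither were the E-box CACGTG (7.15% of promoters) and the heat shock core GAANNTTC (7.86%). The other genes in this account are named only.

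At each of the 3 weeks Neat1 was higher in high-fat liver than in control liver on its probe set 1428083_at, the one on both designs. Its signal, after each array was centred on a common median, was 3392 on the high-fat array against 1731 on the control array at week 2. At week 4 it was 1742 on the high-fat array against 916 on the control array. At week 10 it was 1902 on the high-fat array against 416 on the control array. The 3 high-fat signals were 1742 to 3392 and the 3 control signals 416 to 1731. The lowest high-fat signal, at week 4, and the highest control signal, at week 2, were nearly equal and were read on different designs. The floor, below which a signal was not used, was 155.3, and Neat1 was above it on all 6 arrays, as were 50.4% to 65.8% of shared probe sets on each. The 6 signals lay between the 61.9th percentile of shared probe sets, on the control array of week 10, and the 93.9th, on the high-fat array of week 2, which ranks brightness and not amount of RNA. In whole liver, a change in the share of cells that make an RNA and a change in the RNA per cell cannot be told apart.

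**Figure D1:**
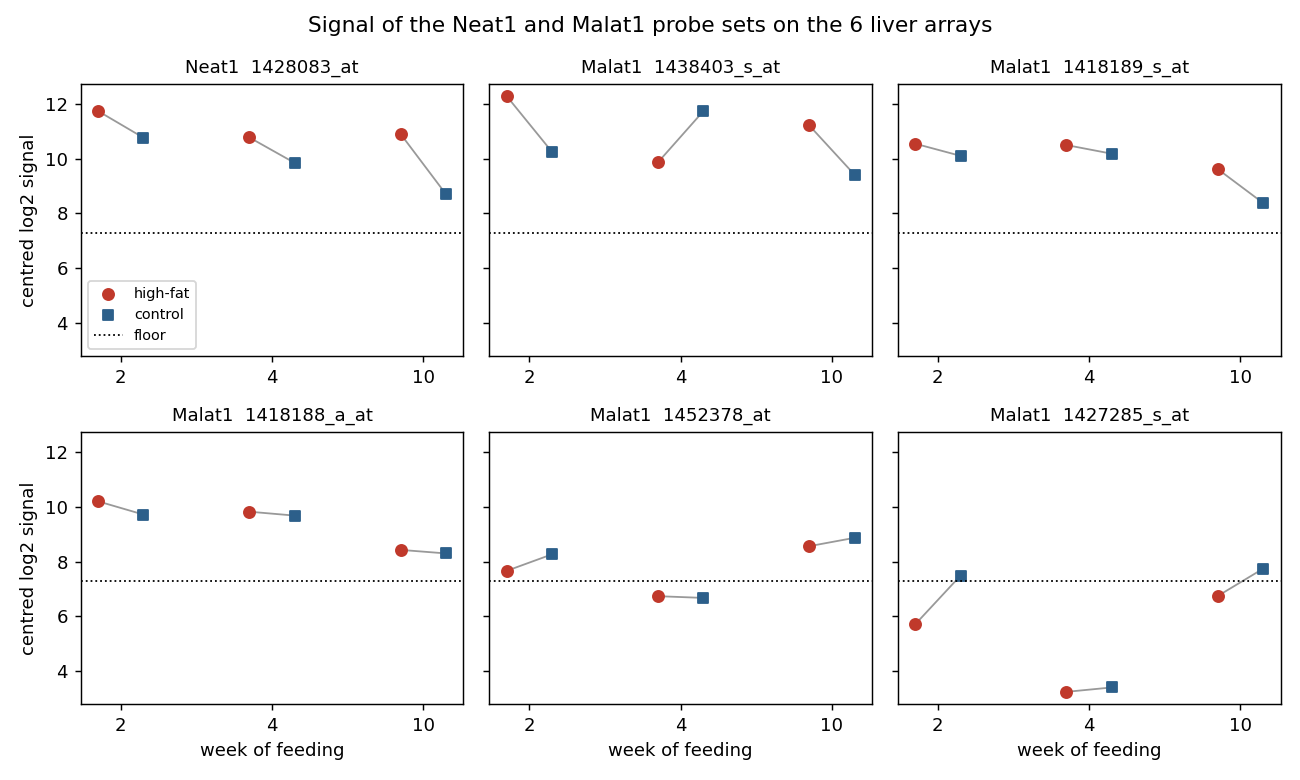
Centred log2 signal (vertical axis) of the 6 probe sets on both array designs at weeks 2, 4 and 10 (horizontal axis), with 1 point per array, high-fat as red circles and control as blue squares, joined within a week. Neat1 lies higher in high-fat liver at every week, Malat1 1438403_s_at is lower there at week 4 and higher at weeks 2 and 10, and the dotted line is the floor of 7.28.

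The log2 differences of Neat1, high-fat minus control, were 0.97, 0.93 and 2.19 at weeks 2, 4 and 10, or 1.96-fold, 1.90-fold and 4.57-fold. Their mean was 1.36 ± 0.72 (SD over n = 3 weeks), a 2.57-fold difference. Probe sets above the floor on at least 3 arrays numbered 14533, and of these 0.179% were at least 1.5-fold higher at all 3 weeks. Only 5 of the 14533 had a larger difference than Neat1 in their weakest week. At single weeks, 252 had a higher difference at week 2, 164 at week 4 and 27 at week 10. These are the values on which Neat1 was chosen, and nothing is read from them.

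The larger difference at week 10 came with a low control signal. Between the weeks read on the same design, Neat1 was 416 on the control array of week 10 against 1731 on that of week 2, or 4.16-fold lower. On the high-fat arrays it was 1902 at week 10 against 3392 at week 2, or 1.78-fold lower. At least 2-fold lower at week 10 than at week 2 were 2.59% of probe sets on the control arrays and 5.44% on the high-fat arrays. Leaving week 10 out, the mean difference of Neat1 between the diets was 0.95.

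The other Neat1 probe set, 1442881_at, was on the larger design alone and went the other way. Its signal was 84.7 on the high-fat array of week 4, below the floor, against 193.9 on the control array. High-fat liver was therefore lower by at least 1.25-fold, at the week where 1428083_at was 1.90-fold higher. The files do not say which part of the RNA or which isoform either probe set reads.

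By the platform annotation, Malat1 was read by 5 probe sets on both designs, and these did not tell 1 story. The assignment of each to Malat1 was taken as given, since no probe sequences were at hand. The brightest on average, 1438403_s_at, had a signal of 4953 on the high-fat array against 1212 on the control array at week 2. At week 4 it had 927 on the high-fat array against 3375 on the control array. At week 10 it had 2364 on the high-fat array against 680 on the control array. The diets thus changed places at week 4, and the groups overlapped over the 3 weeks. Its log2 differences were 2.03, -1.86 and 1.80, with a mean of 0.65 ± 2.18 (SD over n = 3 weeks). Leaving out 1 week gave a mean of -0.03 without week 2, 1.91 without week 4 and 0.08 without week 10.

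Differences of that size were rare at each week. Past 2-fold and higher in high-fat liver were 1.47%, 0.908% and 4.05% of the 14533 probe sets at weeks 2, 4 and 10, and past 2-fold and lower were 2.17%, 1.05% and 4.4%. Only 7 probe sets had a higher difference at week 2, 8 had a lower one at week 4 and 64 had a higher one at week 10. At least 2-fold at all 3 weeks with week 4 opposite to weeks 2 and 10 were 3 probe sets, or 0.0206%, and 1438403_s_at is 1 of them. It was chosen for these values, and they are a description of 6 arrays.

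The probe set 1418189_s_at had the same sign at each week and smaller differences at weeks 2 and 4. Its signal was 1488 on the high-fat array against 1095 on the control array at week 2. At week 4 it was 1438 on the high-fat array against 1155 on the control array, and at week 10 it was 785 on the high-fat array against 333 on the control array. The log2 differences were 0.44, 0.32 and 1.24, of which the last is past 2-fold. Without centring the arrays, the week 2 value was -0.23, where the median of all probe sets was -0.67.

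The probe set 1418188_a_at differed by under 1.5-fold between the diets at each week. Its signal was 1168 on the high-fat array against 836 on the control array at week 2, 899 on the high-fat array against 815 on the control array at week 4, and 343 on the high-fat array against 314 on the control array at week 10. Its log2 differences were 0.48, 0.14 and 0.13, where 7.38%, 4.46% and 14.0% of probe sets were at least 1.5-fold higher at weeks 2, 4 and 10. Without centring, the week 2 value was -0.19, again against a median of -0.67. The level of this probe set moved more with the week than with the diet. It was 3.40-fold lower at week 10 than at week 2 on the high-fat diet and 2.67-fold lower on the control diet. For 1418189_s_at the level was 1.90-fold lower at week 10 than at week 2 on the high-fat diet and 3.29-fold lower on the control diet. Its diet difference at week 10, 2.35-fold, lay between these.

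The dimmer Malat1 probe sets leaned the other way. For 1452378_at the signal was 202.1 on the high-fat array against 306.8 on the control array at week 2 and 376.7 on the high-fat array against 465.2 on the control array at week 10, with both arrays below the floor at week 4. Its log2 differences were -0.60 and -0.30 at weeks 2 and 10. The probe set 1427285_s_at was above the floor on 2 arrays, the controls of weeks 2 and 10, with signals of 179.5 and 213.5. High-fat liver was lower by at least 1.16-fold at week 2 and by at least 1.37-fold at week 10. Both probe sets on the larger design alone, 1429060_at and 1436202_at, were below the floor on both arrays of week 4.

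**Figure D2:**
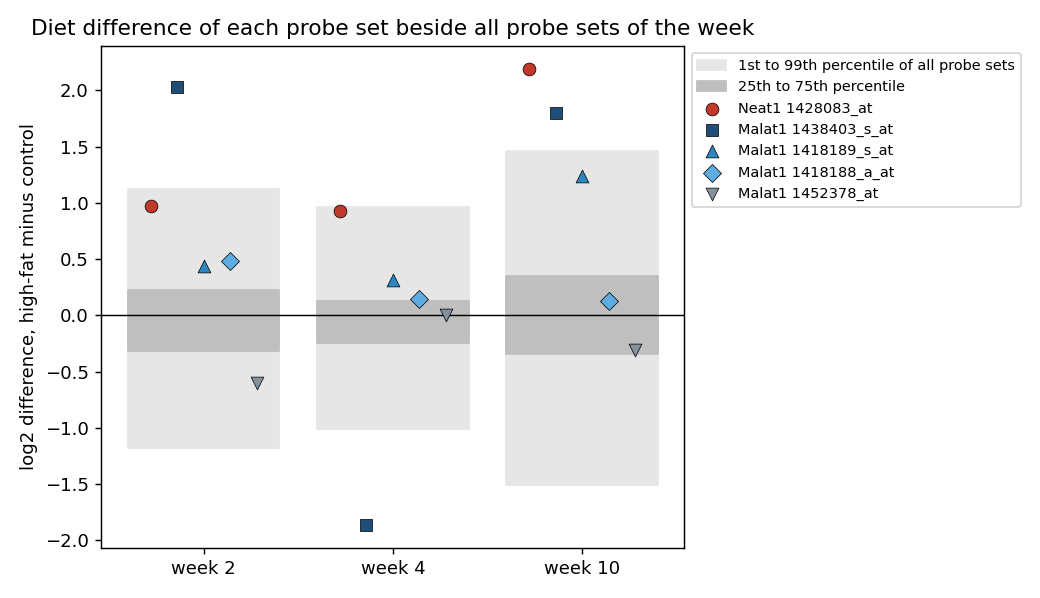
Log2 difference between the diets, high-fat minus control (vertical axis), at weeks 2, 4 and 10 for Neat1 and the 4 Malat1 probe sets above the floor on at least 3 arrays. Bands hold the middle of the 14533 probe sets, from the 1st to the 99th percentile and from the 25th to the 75th. At week 4 Malat1 1438403_s_at lies at -1.86 while 1418189_s_at lies at 0.32.

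The disagreement was measured as the range, highest minus lowest log2 difference, over the 4 Malat1 probe sets above the floor on at least 3 arrays. It was 2.63 at week 2, 2.18 at week 4 and 2.10 at week 10. Among the 223 genes with 4 such probe sets, the median range was 0.83, 0.58 and 0.97 at these weeks. None of the 223 had a larger range than Malat1 at week 2, 1 had at week 4 and 11 had at week 10. Over the 3000 genes with at least 2 such probe sets, 0, 6 and 60 had a larger range. Malat1 was picked partly through the probe set that sets these ranges, so they carry no test.

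**Figure D3:**
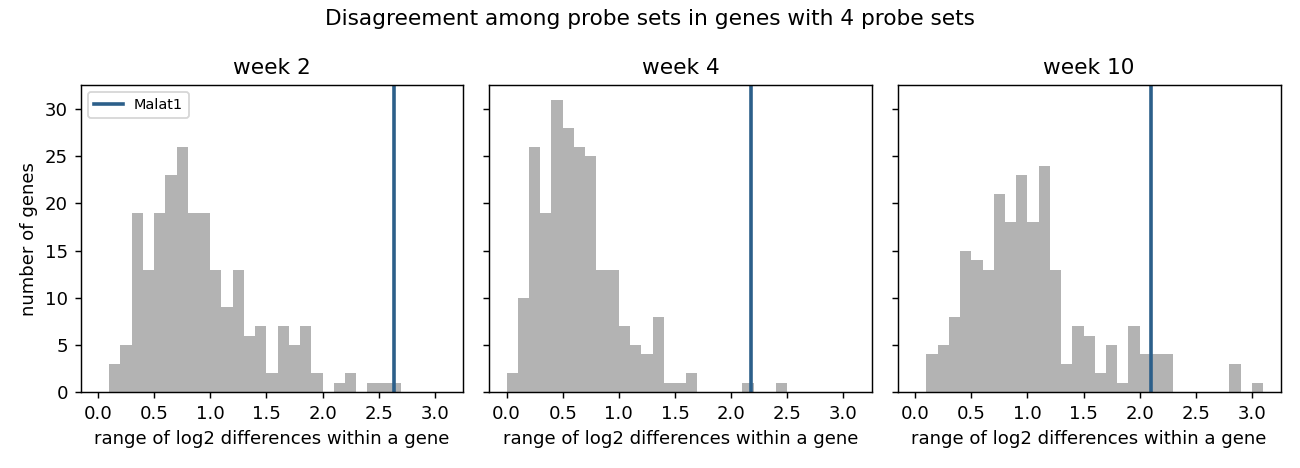
Number of genes (vertical axis) by the range of the log2 diet difference over their probe sets (horizontal axis), for the 223 genes with 4 probe sets above the floor on at least 3 arrays, 1 panel per week. The blue line is Malat1, at 2.63, 2.18 and 2.10 for weeks 2, 4 and 10, far to the right of the medians of 0.83, 0.58 and 0.97.

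A lone probe set past 2-fold was common in these arrays. Of genes with several probe sets whose brightest was at least 2-fold different, another passed 2-fold in the same direction for 8 of 76 at week 2, 14 of 58 at week 4 and 44 of 223 at week 10. Malat1 was among those with none at weeks 2 and 4. At week 10 its 1418189_s_at was past 2-fold in the same direction as 1438403_s_at. Another probe set of opposite sign was found for 48.7%, 22.4% and 38.1% of these genes.

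Within an array, the log2 ratio of 1438403_s_at to 1418189_s_at shows the same disagreement without any scaling between arrays. It was 1.73 on the high-fat array against 0.15 on the control array at week 2. At week 4 it was -0.63 on the high-fat array against 1.55 on the control array, and at week 10 it was 1.59 on the high-fat array against 1.03 on the control array. The ratio of 1418189_s_at to 1418188_a_at was steadier at first, at 0.35 on the high-fat array against 0.39 on the control array at week 2 and 0.68 on the high-fat array against 0.50 on the control array at week 4. At week 10 it was 1.19 on the high-fat array and 0.09 on the control array. A name ending in _s_at marks a probe set that can also read transcripts of another gene, and one ending in _a_at reads several transcripts of 1 gene. Without the _s_at probe sets, an alternative chosen after the data were seen, the mean Malat1 difference was 0.25 on 1418188_a_at.

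Control probe sets that read the 5′ and 3′ ends of the same transcript were set beside these values, since a higher 3′/5′ ratio is a sign of shorter or degraded RNA. For pyruvate carboxylase the ratio was 9.64 on the high-fat array against 3.82 on the control array at week 2, 7.78 on the high-fat array against 4.26 on the control array at week 4, and 2.39 on the high-fat array against 4.01 on the control array at week 10. Its log2 difference between the diets was therefore 1.33, 0.87 and -0.74, positive at weeks 2 and 4 and negative at week 10. The same order was seen for beta-actin, with 0.42, 0.13 and -0.56, and for Gapdh, with 0.37, -0.01 and -0.12. At these weeks Neat1 1428083_at had log2 differences of 0.97, 0.93 and 2.19, and Malat1 1438403_s_at had 2.03, -1.86 and 1.80. The part of RNA quality in either result was not tested.

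Ribosomal and repeat RNA also differed between the arrays. The 3′ probe set of 18S ribosomal RNA had a signal of 1104 on the high-fat array against 5592 on the control array at week 2, 357 on the high-fat array against 592 on the control array at week 4, and 3539 on the high-fat array against 4273 on the control array at week 10. The log2 differences were -2.34, -0.73 and -0.27 on this probe set, -2.24, -0.62 and 0.39 on the middle one and -2.41, -0.65 and 1.14 on the 5′ one, so the ends went opposite ways at week 10. For the B1 repeat, a short interspersed element also found within nuclear transcripts, the signal was 1151 on the high-fat array against 879 on the control array at week 2, 2691 on the high-fat array against 1093 on the control array at week 4, and 1055 on the high-fat array against 2117 on the control array at week 10. The brighter B2 repeat probe set had log2 differences of -0.02, -0.80 and -0.55. The part of ribosomal and repeat RNA in the Neat1 and Malat1 values was not tested. The control array of week 10, which has the lowest Neat1 signal, also had the highest spiked-in bioB, bioC, bioD and cre signals of the 6 arrays. On AFFX-BioDn-3_at it had 27080, against 4032 to 8252 on the others, and on AFFX-CreX-3_at 67763, against 14930 to 22741. The 18S 3′/5′ ratio of this array was 8.0, against 2.25 to 3.00 on the others. Its part in the week 10 values was not tested.

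**Figure D4:**
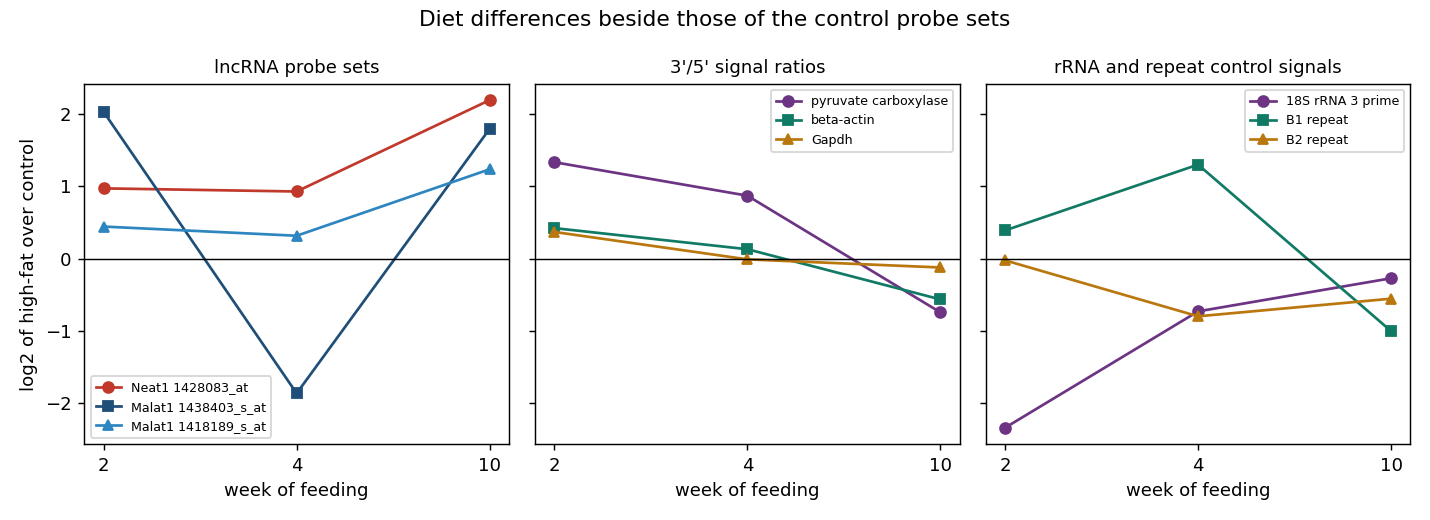
Log2 of high-fat over control (vertical axis) at weeks 2, 4 and 10, for lncRNA probe sets on the left, for 3′/5′ signal ratios of control transcripts in the middle and for ribosomal and repeat RNA controls on the right, 1 pair of arrays per point. Neat1 stays above 0 at each week (0.97, 0.93 and 2.19), while the pyruvate carboxylase ratio is 1.33, 0.87 and -0.74.

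Markers of cell types were measured on the same arrays. The median log2 differences of all 14533 probe sets at weeks 2, 4 and 10, for comparison, were -0.04, 0.00 and 0.01. All 8 hepatocyte markers measured, among them Alb, Apoa1 and Ttr, were above the floor on all 6 arrays. At weeks 2, 4 and 10 their summed signal was 216557, 156357 and 304461 on high-fat arrays, against 248578, 284926 and 431362 on control arrays. Of the 8 markers, 2, 0 and 0 were higher in high-fat liver at these weeks. Macrophage and Kupffer cell markers summed to 17690, 28008 and 22342 on the high-fat arrays, in order of week, against 19909, 26619 and 13166 on the control arrays. Of those 11 markers, 3, 7 and 11 were higher in high-fat liver at weeks 2, 4 and 10, so that at week 10 all were, together with Neat1. Among them Marco, at 0.10, was a bound at week 10, with the control array below the floor. Endothelial markers summed to 5969, 7100 and 8714 on the high-fat arrays, in order of week, against 8008, 8078 and 5377 on the control arrays. Higher in high-fat liver were 1, 3 and 8 of 9, and Vwf was at the floor on all arrays.

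Lymphocyte and neutrophil markers summed to 1598, 3356 and 2754 on the high-fat arrays of weeks 2, 4 and 10, against 1587, 1548 and 1893 on control arrays. Of 12 listed, 6 were tested: Cd79a, Cd79b, Ighm and Ms4a1 of B cells, and S100a8 and S100a9 of neutrophils. No T or NK cell marker passed the filter. At week 4 Ighm had 1503 on the high-fat array against 336 on the control array, and its other probe sets had mean differences of -0.32 to 0.28. Higher in high-fat liver were 3, 5 and 6 of 6 at the 3 weeks. Stellate cell and fibroblast markers summed to 11912, 15825 and 12288 on the high-fat arrays, in order of week, against 14041, 15662 and 8621 on control arrays. Of these markers, 5, 6 and 7 of 9 were higher. Both erythroid markers tested summed to 455, 441 and 860 on the high-fat arrays, in order of week, against 531, 230 and 776 on control arrays. Of the 2, there were 0, 1 and 1 higher. No cholangiocyte marker was above the floor on at least 3 arrays, and Krt7 and Epcam were at the floor on all 6. At week 2, where Neat1 was 1.96-fold higher in high-fat liver, the macrophage and endothelial medians were -0.15 and -0.49. At week 10 they were 0.71 and 0.44. The part of cell composition in the Neat1 and Malat1 differences was not tested.

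Genes linked to these RNAs by function, regulation, position or RNA class were compared over the 3 weeks with limma, week as a block. The fit covered all 14533 probe sets, with Benjamini-Hochberg adjustment over all of them, and the brightest probe set stood for a gene. Of 112 genes on 6 lists 75 were tested, and none was called higher or lower at an adjusted p under 0.05. At an unadjusted p under 0.05 there were 2 of the 75 and 586 of the 14533, and the smallest adjusted p on the lists was 0.993. Over all probe sets 0.0138% were called higher and 0.0% lower. With 3 differences per gene, these counts do not show that the genes were equal between the diets. The same fit recovered 0 of 67 simulated differences of 1 on the log2 scale.

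Of all 14533 probe sets, 6534 had a mean difference above 0, for comparison with the counts on this and the later lists. Of 24 paraspeckle proteins tested, 12 had a mean difference above 0, and their median was 0.00, beside -0.03 over all probe sets. Their weekly medians were 0.22, 0.06 and -0.22, and 16, 14 and 7 of the 24 were above 0 at weeks 2, 4 and 10, where Neat1 had 0.97, 0.93 and 2.19. The largest mean differences were those of Hnrnpr at 0.45 ± 0.30 (standard error), Hnrnpm at 0.41 ± 0.26 and Rbmx at -0.38 ± 0.24 (0.00 on its other probe set), all heterogeneous nuclear ribonucleoproteins, and of Fam98a at 0.28 ± 0.27. Other probe sets of Hnrnpr had means of 0.00 and 0.60. Sfpq, which binds Neat1 and is needed to build the body, was named after its values were seen, with 0.94 at week 4 and -1.25 at week 10. Its partner Nono, named likewise, had 0.32, 0.07 and 0.13.

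Nuclear speckle and splicing factors, which share the speckles with Malat1, had a median of -0.07 over 22 genes, of which 6 were above 0. Their weekly medians were 0.17, 0.00 and -0.41. U2af1, which recognises the 3′ splice site, had a mean of -0.69 ± 0.26 (unadjusted p = 0.0263, limma adjusted p = 0.993) and was lower at all 3 weeks. Srsf3, a serine and arginine rich splicing factor, had -0.46 ± 0.30, Srrm1, a splicing coactivator, -0.37 ± 0.43, and Clk1, a kinase of splicing factors, -0.34 ± 0.24. Other probe sets of Srrm1 had means of -0.16 to 0.43, and those of Srsf3 of -0.20 to 0.28. At week 10, 4 of the 22 were at least 2-fold lower, with Srrm1 at -1.94, Srsf3 at -1.26 and, named after their values were seen, Rnps1 at -1.62 and Srsf1 at -1.04, where 4.4% of all probe sets were.

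Subunits of RNase P, the tRNA 3′ processing enzyme Elac2 and the m6A writer subunits formed a list of 9 tested genes with a median of -0.19, of which 3 were above 0. Wtap, a regulatory subunit of the m6A writer, had -0.20, -0.60 and -0.97 at the 3 weeks (mean -0.59 ± 0.23, unadjusted p = 0.032, limma adjusted p = 0.993), and another of its probe sets had a mean of -0.03. The RNase P subunit Rpp30 had a mean of -0.42 ± 0.22, with 0.21 on its other probe set, and the subunit Pop7 had 0.31 ± 0.22. Elac2 had -1.18, -0.64 and 0.63, so its sign changed at week 10.

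Transcription factors that have been reported to raise Neat1, mostly in human cells, were tested for 4 genes, with a median of -0.11. Atf4, a stress response factor, had -0.11, -0.70 and -0.26. The hypoxia factor Hif1a had -0.53, 0.39 and -0.53, and its relative Epas1 -0.57, -0.52 and 1.11. Atf2 had a mean of 0.01 ± 0.21. Whether any of them acts on Neat1 in these livers was not tested.

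Of the genes around the locus on chromosome 19, 6 were tested, with a median mean difference of -0.05 beside -0.03 over all probe sets, and 2 were above 0. Frmd8, the next gene past Neat1, had -0.33, 0.03 and 0.12, and Slc25a45, which follows it, had 0.09, -0.17 and -0.06. Dpf2, a subunit of chromatin remodelling complexes, had -0.02, 0.24 and 0.15. Ltbp3 had -0.04, -0.27 and 0.35, Ehbp1l1 had -0.88 at week 2 and 0.08 at week 10 and was at the floor at week 4, and the protease gene Capn1 had 0.21, 0.02 and -0.83, the values of Ltbp3 at week 4 and Capn1 at week 10 being bounds.

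Other long noncoding RNAs also had a median near 0, at -0.05 over 10 tested, with 4 above 0. Snhg6, Snhg8, Snhg5 and Dleu2, of which the Snhg genes host small nucleolar RNAs, had mean differences of -0.45 ± 0.25, -0.35 ± 0.23, 0.24 ± 0.26 and -0.15 ± 0.22. Snhg6 was at -1.01 at week 10, the single value past 2-fold among the 10 at any week. Gas5 and Meg3, chosen after their values were seen, had means of -0.03 and -0.07. Other probe sets of Meg3 had means of 0.38 to 0.82, and those of Gas5 of -0.26 to 0.15.

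**Figure D5:**
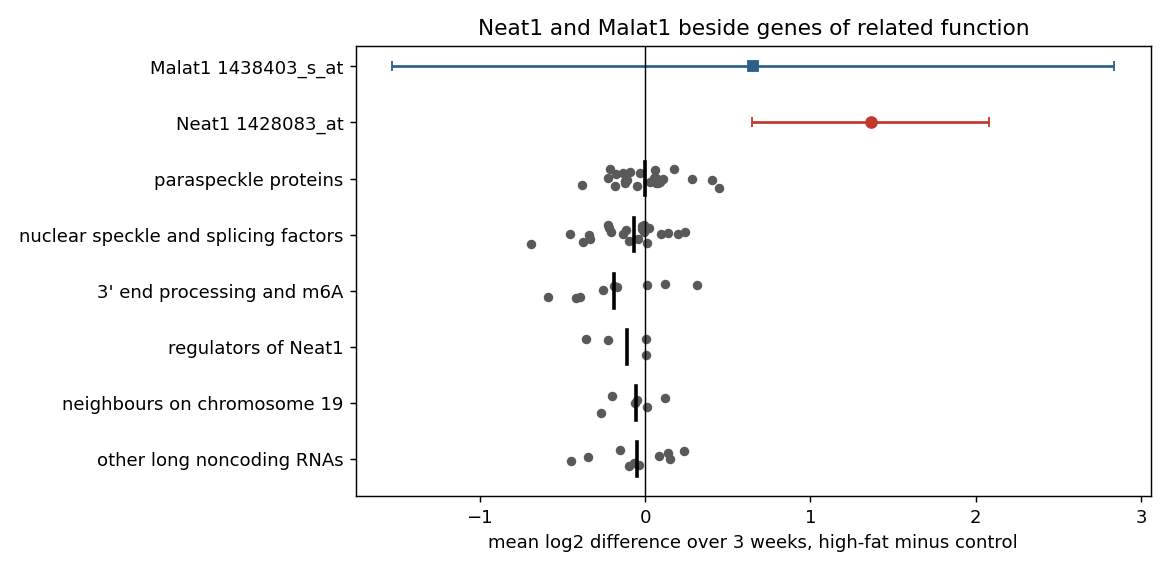
Mean log2 difference over 3 weeks, high-fat minus control (horizontal axis), for Malat1 1438403_s_at and Neat1 with bars of 1 SD over the weeks, and below them 1 point per gene of each list with a black line at the list's median. Each list gene is shown by its brightest probe set. Neat1 stands at 1.36, and no list gene so shown is above 0.45 or below -0.69. Other probe sets of list genes, not shown, reached 0.82 (Meg3) and -0.74 (Tug1).

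Genes with the most similar pattern were found by the Euclidean distance between their 3 log2 differences and those of the brightest member probe set, over probe sets above the floor on all 6 arrays. Nearest to Neat1 was Elovl6, a fatty acid elongase, with 1.09, 0.79 and 2.15 (distance 0.19 on the log2 scale, over 3 values). It was followed by Apoa4, an apolipoprotein, with 1.23, 0.85 and 1.69 (0.58), Pgd, an enzyme of the pentose phosphate pathway, with 0.77, 0.84 and 1.64 (0.60), and Phlda1 with 1.16, 1.27 and 1.36 (0.92). The Malat1 probe set 1418189_s_at stood at a distance of 1.25 from Neat1.

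No gene came as near to Malat1 1438403_s_at. Nearest was Junb, an immediate early transcription factor, with 1.14, -0.63 and 1.69 (distance 1.52). Vipas39, an endosomal trafficking protein, had 1.06, -0.48 and 1.35 (1.75), the major urinary protein gene Mup5 1.07, -0.86 and 0.72 (1.76), and Nr4a1, an immediate early nuclear receptor, 0.96, -1.38 and 0.40 (1.83). The other Malat1 probe sets were farther than these 4 genes, with 1418189_s_at at 2.75, 1418188_a_at at 3.03 and 1452378_at at 3.85, and Neat1 was at 3.01. All distances share the same 6 arrays and have no p.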

How the data were processed

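Liver RNA from 6 groups was hybridised to Affymetrix arrays after biotin labelling of cRNA, per the labels' protocols. The authors deposited 1 linear signal intensity for each probe set. As deposited, an array's mean without its top and bottom 2% stood near 500 on 5 arrays and near 800 on the control array of week 2. No source used here names the software that summarized probes. From these, log2 values were centred on each array's median over 9922 probe sets that exceeded the floor on all 6 arrays. The floor was the pooled 40th percentile (155.3, or 7.28 on the log2 scale), lower values were set to it, and a difference with 1 side there is a bound. Symbols come from the platform annotation. The comparison over 3 weeks used limma 3.58.1 in R 4.3.3. On simulated data it recovered 0 of 67 log2 changes of 1, 41 of 67 of 2 and 59 of 66 of 4. Its error is the spread of the diet difference between weeks, biological and technical at once, and the number of arrays limits the precision. Figures used matplotlib 3.10.9. Alternatives changed scaling, floor, filter, week block, weeks and probe set. Members and gene lists were chosen with earlier results of these data known. Genes were named by rule: up to 4 per list with the largest mean difference, all tested neighbours, and the 4 nearest in pattern. Some list members were not analysed here.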

Additional observations from a re-analysis of the deposited data

Results flagged for a closer look

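The brightest Malat1 probe set, 1438403_s_at, had effects of opposite direction at different weeks of the same contrast. Its log2 difference, high-fat minus control, was 2.03 at week 2, -1.86 at week 4 and 1.80 at week 10, each from 1 array per diet. It was the single member or list gene that was at least 2-fold different in both directions. The difference between the weeks was not tested.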

How the results depend on the processing

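The labels give no replicate numbers, and the diets were paired by week, the block of the fit. Without that block no list gene was called, and 97 in place of 586 probe sets had an unadjusted p under 0.05. Over 6 scaling and floor alternatives, 100 of 108 values of the 6 shared member probe sets moved by less than 1 SD of all differences of that week, 6 moved by more and 2 turned their direction. Values as deposited, which shift the median of all week 2 differences to -0.67, gave week 2 differences of 0.30 for Neat1, 1.36 for Malat1 1438403_s_at, -0.19 for 1418188_a_at, -0.23 for 1418189_s_at and -1.27 for 1452378_at. That is above the shifted median for all but the last. The rest moved with the floor, at week 2: 1427285_s_at to -1.73 at the 20th percentile floor and -1.78 without one, and 1452378_at to 0.00 at the 60th. Neat1 stayed positive at each week in all 6, at 0.30 to 1.01, 0.84 to 1.01 and 2.17 to 2.47. The mean difference of Malat1 1438403_s_at was -0.0333 without week 2, 0.08 without week 10 and 1.91 without week 4. At 1.5-fold in place of 2-fold, the share of genes with a second probe set past the fold was 20.4% against 10.5% at week 2 and 33.5% against 19.7% at week 10. In 12 other fits no list gene was called, with 0 to 6 at an unadjusted p under 0.05 and a smallest adjusted p of 0.207, and over all probe sets 0 to 10 were called. The 3 probe sets on the larger design alone were not recomputed.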
